A study of Mus musculus with 3 samples.

Results

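Vomeronasal receptor genes encode the receptors with which a mouse detects pheromones, and 694 bins of 10 kb that carry such genes were examined for 5-hydroxymethylcytosine (5hmC) in the cerebellum. A bin was taken when it lay on an autosome and overlapped, by at least 1 bp, a protein-coding gene of the RefSeq GRCm38.p6 annotation whose symbol starts with Vmn1r or Vmn2r. Of 355 such genes, 351 were placed on autosomal chromosomes within the span of the bins, 229 of them Vmn1r and 122 Vmn2r. They touch 698 bins, of which 4 were not analysed here. The 694 bins that were stand beside 239486 autosomal bins and 264399 bins in all. Vmn1r genes occupy 256 of them and Vmn2r genes 438, and no bin holds both types. A value in all 3 libraries was given for 677 bins.

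The study mapped 5hmC in genomic DNA of mouse cerebellum by enzymatic deamination, with 1 library in each of 3 groups. The sleep-deprived library was made by DDD-seq (double-stranded DNA deamination sequencing) from cerebellum labelled as chronic sleep deprivation. The ACE-seq library, from an APOBEC-coupled method, and the DDD-seq control library both carry a treatment label of normal or control. Strain, sex, age, the number of animals and the length of deprivation are not given in the sources used here. All 3 libraries carry the same protocol text, in which 5hmC is protected by a sugar and the remaining cytosines are deaminated by the enzyme SsdAcat. A deaminated cytosine is read as thymine, so the deposited fraction is the share still read as cytosine, and it is given here as a level in percent. With 1 library in each group no difference between groups has a replicate check, and no p-value is given. Standard errors (SE) and standard deviations (SD) below are taken over bins and describe scatter along the genome, not between animals. The table gives no read counts, so the depth behind each level is unknown.

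The mouse vomeronasal organ, a paired tube at the base of the nasal septum, holds sensory neurons in an apical and a basal layer. Apical neurons express V1R receptors (Vmn1r genes) and signal through Gαi2, and basal neurons express V2R receptors (Vmn2r genes) and signal through Gαo. V1R proteins have a short outer end and their genes a single coding exon, while V2R proteins carry a long outer domain that binds peptides and proteins, encoded over several exons. Each neuron of the organ chooses few receptor genes and keeps the rest silent, and the genes sit in tandem clusters that grew by duplication. The cerebellum has no vomeronasal sensory neurons, so the receptor genes were examined in a tissue where they have no known sensory role. In neurons in general, 5hmC is known to accumulate over the bodies of transcribed genes.

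The receptor genes lie on 11 autosomes in 26 clusters, where genes up to 1000 kb apart were joined. Chromosome 7 holds 176 of the 351 genes and 315 of the 694 bins, or 45.4%. The median annotated length was 924 bp for Vmn1r genes and 24640.5 bp for Vmn2r genes, so 202 of the 229 Vmn1r genes sit within a single bin. A Vmn1r level is therefore mostly that of the DNA around a short gene, and a Vmn2r level mostly that of the gene body.

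The sequences at the gene starts show how few CG sites these windows hold and how alike some copies are. A RefSeq window of 300 bases, from 250 before to 50 after the annotated start on GRCm38.p6, was matched by symbol for 322 of the 351 genes. Vmn2r116, the receptor of the male tear peptide ESP1, has its window at chr17:23384553-23384852, plus strand. Vmn2r26, also known as V2r1b and shown in mouse to respond to short peptides, has it at chr6:124024508-124024807, plus strand. Vmn1r85, a V1R of the J subfamily also named V1rj3 and reported to respond to sulfated steroids, has it at chr7:13085166-13085465, minus strand. They are printed from 5′ to 3′ on the strand of the gene in lower case, with every CG in capitals.
Vmn2r116: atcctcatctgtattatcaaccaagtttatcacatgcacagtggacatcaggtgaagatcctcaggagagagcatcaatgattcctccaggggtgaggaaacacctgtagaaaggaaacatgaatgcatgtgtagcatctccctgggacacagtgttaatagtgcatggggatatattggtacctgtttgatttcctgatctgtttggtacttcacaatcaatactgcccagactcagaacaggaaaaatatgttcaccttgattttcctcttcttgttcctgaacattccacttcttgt
Vmn2r26: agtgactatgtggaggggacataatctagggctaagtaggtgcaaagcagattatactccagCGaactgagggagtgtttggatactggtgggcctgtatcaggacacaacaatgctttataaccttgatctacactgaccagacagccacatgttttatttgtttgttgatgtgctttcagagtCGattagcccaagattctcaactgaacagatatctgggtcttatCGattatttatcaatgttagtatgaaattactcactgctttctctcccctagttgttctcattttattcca
Vmn1r85: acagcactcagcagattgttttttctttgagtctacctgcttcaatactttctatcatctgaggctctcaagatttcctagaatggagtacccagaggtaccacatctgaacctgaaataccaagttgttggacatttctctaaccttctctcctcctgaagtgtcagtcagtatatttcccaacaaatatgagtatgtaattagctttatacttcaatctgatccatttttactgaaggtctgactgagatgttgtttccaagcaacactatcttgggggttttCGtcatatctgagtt
Vmn2r116 holds 0 CG in the window, Vmn2r26 holds 3 and Vmn1r85 holds 1.

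Pairs of similar copies are shown next. Vmn1r49 (chr6:90072969-90073268, minus strand) and Vmn1r50 (chr6:90107025-90107324, plus strand) are also named V1rb2 and V1rb1. V1rb2 is among the first V1R receptors tied to a ligand in mouse, the urine ketone 2-heptanone, and no ligand is given here for V1rb1. Vmn1r103 (chr7:20510485-20510784, minus strand) and Vmn1r143 (chr7:22189127-22189426, plus strand) lie in the large Vmn1r cluster of chromosome 7, and no ligand is given here for either.
Vmn1r49: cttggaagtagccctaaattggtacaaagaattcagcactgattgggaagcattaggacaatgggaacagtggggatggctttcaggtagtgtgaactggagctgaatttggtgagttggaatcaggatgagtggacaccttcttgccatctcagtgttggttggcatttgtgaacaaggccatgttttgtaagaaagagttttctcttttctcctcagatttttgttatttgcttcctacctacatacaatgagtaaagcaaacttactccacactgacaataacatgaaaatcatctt
Vmn1r50: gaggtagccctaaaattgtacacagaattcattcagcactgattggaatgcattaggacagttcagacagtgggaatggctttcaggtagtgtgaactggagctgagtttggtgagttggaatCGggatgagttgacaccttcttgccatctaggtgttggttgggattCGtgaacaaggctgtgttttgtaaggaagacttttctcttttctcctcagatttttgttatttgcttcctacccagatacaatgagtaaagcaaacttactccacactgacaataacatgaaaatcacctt
Vmn1r103: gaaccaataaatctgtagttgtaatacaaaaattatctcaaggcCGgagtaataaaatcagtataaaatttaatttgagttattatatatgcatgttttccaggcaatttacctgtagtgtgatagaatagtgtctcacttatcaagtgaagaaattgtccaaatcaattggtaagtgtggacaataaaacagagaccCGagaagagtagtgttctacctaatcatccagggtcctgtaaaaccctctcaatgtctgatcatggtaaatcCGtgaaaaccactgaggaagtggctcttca
Vmn1r143: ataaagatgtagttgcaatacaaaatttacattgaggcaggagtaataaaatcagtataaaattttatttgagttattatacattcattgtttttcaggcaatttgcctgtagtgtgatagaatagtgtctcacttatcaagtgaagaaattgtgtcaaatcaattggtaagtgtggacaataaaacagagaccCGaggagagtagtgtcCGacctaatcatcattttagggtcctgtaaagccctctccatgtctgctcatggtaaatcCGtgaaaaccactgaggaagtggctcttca
In a global alignment, Vmn1r49 and Vmn1r50 had the same base in 270 of 304 columns (88.8%), and Vmn1r103 and Vmn1r143 in 272 of 306 (88.9%). The Vmn1r103 window was identical base for base to that of Vmn1r151, and the Vmn1r143 window to that of Vmn1r95. By contrast, Vmn1r85 and Vmn1r103 shared 179 of 355 columns (50.4%), and Vmn2r116 and Vmn2r26 shared 185 of 364 (50.8%).

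Start windows of receptor genes were poor in CG. The motif searched was CG, which reads the same on both strands, and 75.9% of the 323 receptor windows held at least 1, against 94.8% of all 31396 autosomal windows of the same length. The median count was 1 CG per receptor window and 7 per autosomal window, and the median G plus C content was 36.7% and 53.0%. Windows without any CG made up 21.4% for Vmn1r, 29.1% for Vmn2r and 33.5% for olfactory receptor genes. An ATG stood exactly at the annotated start in 87.6% of receptor windows and 5.47% of all autosomal windows, so most receptor windows begin at the coding sequence and not at a mapped transcription start. These counts describe the letters in the windows and name no promoter.

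Receptor bins had low 5hmC levels in every library. The mean was 1.03% (SD 0.833, n = 688 bins) in the sleep-deprived library, 1.02% (SD 1.01, n = 684) in the ACE-seq control and 1.01% (SD 0.673, n = 682) in the DDD-seq control. The means over all autosomal bins were 1.57, 1.52 and 1.56% in the same order of libraries. Median levels of receptor bins were 0.956% in the sleep-deprived library, 0.926% in the ACE-seq control and 0.953% in the DDD-seq control. Of all autosomal bins, 15.1, 19.0 and 17.7% lay below these medians. Below the autosomal median stood 542 of 688 receptor bins in the sleep-deprived library, 522 of 684 in the ACE-seq control and 526 of 682 in the DDD-seq control.

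Both receptor types had similar means. Vmn1r bins averaged 0.990% ± 0.0591 in the sleep-deprived library, 1.06% ± 0.0881 in the ACE-seq control and 1.01% ± 0.0456 in the DDD-seq control (SE over bins). Vmn2r bins averaged 1.05% ± 0.0367, 0.994% ± 0.0343 and 1.01% ± 0.0310. The difference of Vmn1r minus Vmn2r bins was -0.0561 points in the sleep-deprived library, 0.0707 points in the ACE-seq control and -0.00106 points in the DDD-seq control, so its sign was not the same in all libraries. In the ACE-seq control the order of the medians was the other way round, at 0.880% for Vmn1r and 0.952% for Vmn2r bins. Off chromosome 7, Vmn1r bins averaged 1.11, 1.10 and 1.18% and Vmn2r bins 1.07, 0.976 and 1.01%, and the difference was above 0 in each library. Bins that overlap a vomeronasal pseudogene and no protein-coding receptor gene averaged 1.04, 1.03 and 1.03%. Bins inside the clusters without a protein-coding receptor gene averaged 1.04, 0.989 and 0.989%, so the low level extended over whole clusters and was not limited to the receptor genes.

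**Figure D1:**
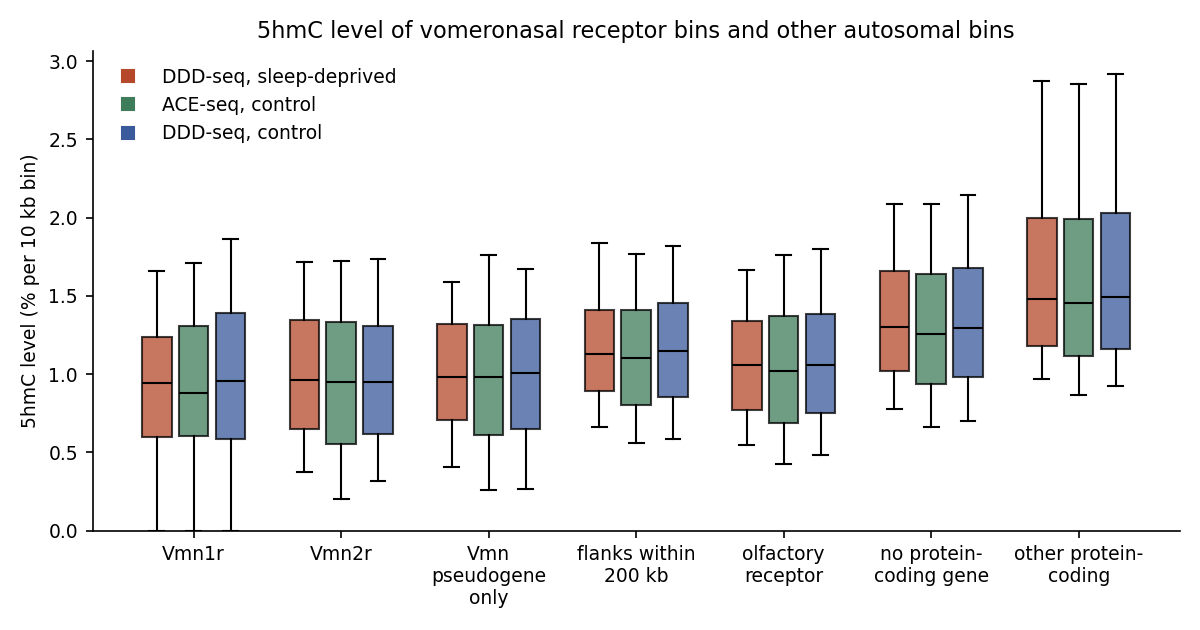
The 5hmC level of 10 kb bins (y axis, percent) is drawn for 7 classes of autosomal bins in the 3 libraries, with boxes from the lower to the upper quartile, a line at the median and whiskers from the 10th to the 90th percentile of bins. Receptor bins of both types sit low, as olfactory receptor bins do, and bins of other protein-coding genes sit highest, with medians of 1.48, 1.45 and 1.49%.

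Bins of olfactory receptor genes, another large family of chemosensory genes, were low as well. They averaged 1.10% (n = 1252) in the sleep-deprived library, 1.07% (n = 1251) in the ACE-seq control and 1.10% (n = 1251) in the DDD-seq control. Bins of all other protein-coding genes averaged 1.76, 1.72 and 1.77%, and bins without a protein-coding gene 1.40, 1.34 and 1.38%. The difference of receptor bins minus other protein-coding bins was -0.737 points in the sleep-deprived library, -0.700 points in the ACE-seq control and -0.753 points in the DDD-seq control. Receptor bins thus had less measured 5hmC than bins with no protein-coding gene at all, in each of the 3 libraries. The plot of levels by bin class shows this order.

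The ends of the distribution went the same way. Among receptor bins, 63 of 677 (9.31%) were in the lowest 10% of bins in all 3 libraries. The share was 0.864% of all autosomal bins and 3.44% of olfactory receptor bins. Among the 63 were 20 Vmn1r and 43 Vmn2r bins. Bins listed at 0 in all 3 libraries belong to this set by construction, and they made up 15 of the 20 Vmn1r and 10 of the 43 Vmn2r bins. The depth behind a listed 0 is unknown. The bound of that lowest 10% was a level of 0.857% in the sleep-deprived library, 0.745% in the ACE-seq control and 0.792% in the DDD-seq control. Only 3 of 677 receptor bins (0.443%) were in the highest 10% in all 3 libraries, against 5.07% of all autosomal bins and 9.26% of bins of other protein-coding genes.

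The 3 bins high in every library stood between lower bins. The bin at the 3′ end of Vmn2r27, a V2R next to Vmn2r26 (chr6:124190001-124200000), had 8.16% in the sleep-deprived library, 3.48% in the ACE-seq control and 5.18% in the DDD-seq control. Its neighbour inside the gene had 1.04, 0.681 and 1.05%, and the neighbour on the other side 1.15, 0.671 and 1.20%. A further bin of raised level, with 3.04, 2.88 and 2.64%, lay 30 kb before it (chr6:124160001-124170000). The bin of Vmn1r48 (chr6:90030001-90040000) had 4.72, 4.80 and 2.94%, while the bin before it, which holds Vmn1r47 and an identical start window, had 0.862, 0 and 0.858%. A bin of Vmn2r42 (chr7:8190001-8200000) had 9.09, 8 and 2.50%, between neighbours at 0.690, 0.847 and 1.12% and at 1.94, 0.826 and 0%. Near it, the bin 20 kb before had 2.58% in the sleep-deprived library and the bin 30 kb before had 3.01% in the DDD-seq control. The bins of Vmn2r27 and Vmn2r42 lie in clusters that also hold bins at 0 in all 3 libraries. The depth behind their high levels is unknown, so few counted cytosines could set them. Whether all of a bin or few cytosines carry such a level cannot be read from bin values.

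Levels were higher outside the clusters than in their receptor bins. Of the 26 clusters, 17 held at least 5 receptor bins and 676 bins in all. The flanks of all 26 clusters, the bins within 200 kb outside a cluster, averaged 1.22% in the sleep-deprived library, 1.18% in the ACE-seq control and 1.22% in the DDD-seq control. The difference of all receptor bins minus these flank bins was -0.196, -0.156 and -0.205 points in these libraries. Over the first 50 kb outside the 17 clusters the mean was 1.13% ± 0.0388, 1.04% ± 0.0421 and 1.20% ± 0.0408. From 450 to 500 kb outside them it was 1.41% ± 0.0532, 1.36% ± 0.0598 and 1.39% ± 0.0631. In the first 50 kb inside the edge it was 1.15% ± 0.0560, 1.07% ± 0.0424 and 1.09% ± 0.0507, so at the edge itself the level inside was below that outside in the DDD-seq control and not in the other two libraries. From 50 to 100 kb inside it was 1.04% ± 0.0384, 1.02% ± 0.0455 and 0.963% ± 0.0420. Flank bins without a protein-coding gene averaged 1.11, 1.04 and 1.09%, close to the receptor bins, and flank bins with a gene 1.34, 1.31 and 1.35%.

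**Figure D2:**
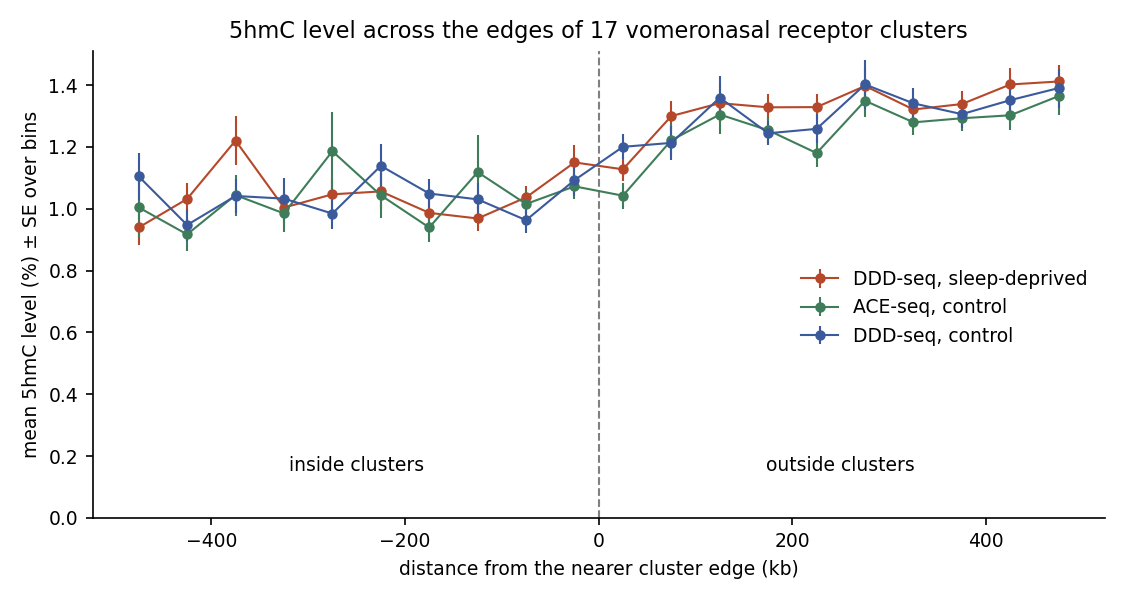
The mean 5hmC level (y axis, percent, with SE over bins) is plotted in 50 kb steps against the distance from the nearer edge of the 17 clusters with at least 5 receptor bins, for the 3 libraries; negative distances lie inside a cluster and hold all bins there, with or without a receptor gene. Steps inside lie between 0.917 and 1.22%, and outside the levels reach 1.41, 1.36 and 1.39% in the step from 450 to 500 kb.

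The level varied between clusters. Means over receptor bins of the 17 clusters ran from 0.772% to 1.45% over all libraries, and each of the 17 was below the autosomal mean in all 3. The mean was below that of the cluster's own flanks in 15 clusters in the sleep-deprived library, 14 in the ACE-seq control and 14 in the DDD-seq control, and in 11 clusters in all 3. The step was wide at the cluster of 22 Vmn2r and 14 Vmn1r genes on chromosome 17 (chr17:17703941-21314886, 103 bins). It had 0.977% ± 0.0540 in the sleep-deprived library, 0.967% ± 0.0491 in the ACE-seq control and 0.838% ± 0.0438 in the DDD-seq control, and its flanks had 1.96, 1.86 and 1.93%. No step was seen at the Vmn2r57 to Vmn2r126 cluster of chromosome 7 (chr7:41399732-43048106, 42 bins), which had 0.964, 0.863 and 0.908% and flanks at 0.966, 0.927 and 0.951%.

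Clusters were also ranked within each receptor type. For Vmn1r, the lowest of 8 was the Vmn1r portion of the chromosome 17 cluster (16 bins), with 0.789% ± 0.125, 0.801% ± 0.119 and 0.888% ± 0.144. The highest was Vmn1r40 to Vmn1r54 (chr6:89711261-90270053, 19 bins), which holds Vmn1r49 and Vmn1r50, with 1.39% ± 0.207, 1.10% ± 0.224 and 1.23% ± 0.132. For Vmn2r, the lowest of 11 was the chromosome 7 cluster without a step, and the highest was the lone Vmn2r120 (chr17:57508783-57545314, 5 bins), with 1.35% ± 0.157, 0.917% ± 0.239 and 1.33% ± 0.366. The order of the 17 cluster means was shared in part between libraries, with a Spearman rank correlation of 0.662 between the sleep-deprived library and the DDD-seq control, 0.275 between both controls and 0.363 between the sleep-deprived library and the ACE-seq control. The 17 points of each share the genome and its base composition, and the coefficients are given as a description.

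**Figure D3:**
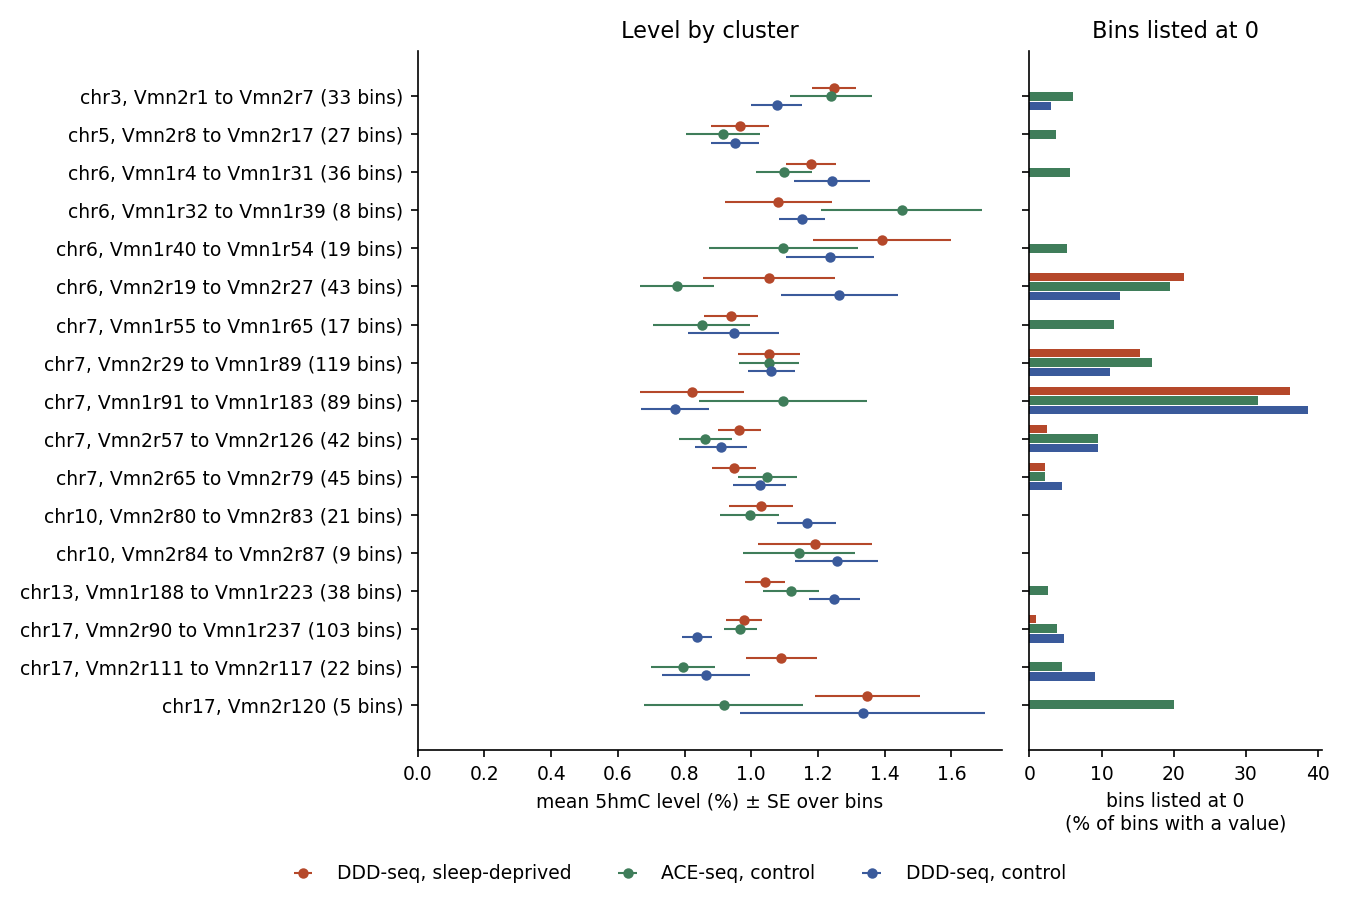
Left, the mean 5hmC level of receptor bins (x axis, percent, with SE over bins) in the 17 clusters with at least 5 bins, named by their first and last gene, for the 3 libraries; right, the share of those bins listed at 0 (x axis, percent). The means lie between 0.772 and 1.45%, and shares above 12% in all 3 libraries are seen in the Vmn2r19 to Vmn2r27 and Vmn1r91 to Vmn1r183 clusters, with 11.2 to 16.9% in the Vmn2r29 to Vmn1r89 cluster.

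The levels of genes chosen for a known ligand, role or family varied between libraries, most of them over few bins. Vmn2r116 (chr17:23384803-23401864, 3 bins), whose ligand is ESP1, had 1.36% ± 0.237 in the sleep-deprived library, 0.742% ± 0.257 in the ACE-seq control and 1.05% ± 0.0693 in the DDD-seq control. Vmn2r26 (chr6:124024758-124062035, 5 bins) had 0.827% ± 0.126, 0.382% ± 0.115 and 1.39% ± 0.210. In Vmn2r26 the 5 bins ran from 0.381 to 1.07% in the sleep-deprived library, from 0 to 0.703% in the ACE-seq control and from 0.880 to 2% in the DDD-seq control. Vmn1r85 and Vmn1r89, both of the J subfamily, had 1.30, 1.65 and 0.766% (1 bin) and 1.54, 1.15 and 1.26% (2 bins). Vmn1r49 had 1.77, 1.09 and 2.42% in its single bin, and Vmn1r50, with nearly the same start window, had 0.683, 1.76 and 1.14%. Vmn1r51, also named V1ra1, had 1.15, 0.542 and 0.937% over 2 bins.

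Vmn2r1 to Vmn2r7 on chromosome 3 form family C of the V2Rs, whose members are expressed broadly in basal neurons beside a more selective V2R. Their cluster (chr3:64078172-64719602, 33 bins) had 1.25% ± 0.0665 in the sleep-deprived library, 1.24% ± 0.123 in the ACE-seq control and 1.08% ± 0.0762 in the DDD-seq control, against flanks at 1.59, 1.59 and 1.55%. Gene means ran from 1.02% (Vmn2r6) to 1.67% (Vmn2r3) in the sleep-deprived library, from 0.693% (Vmn2r6) to 1.47% (Vmn2r5) in the ACE-seq control and from 0.796% (Vmn2r7) to 1.17% (Vmn2r5) in the DDD-seq control. The annotated body of Vmn2r1 spans that of Vmn2r2, so 7 bins count for both genes. Vmn1r1, the only receptor gene on chromosome 1, had 1.74, 1.18 and 1.07% in its bin.

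Among genes with at least 2 bins listed in all libraries (27 Vmn1r and 118 Vmn2r), the highest and the lowest by the mean of the 3 libraries were set by few bins. Vmn2r42 was the highest Vmn2r, at 3.91% ± 2.62, 3.22% ± 2.39 and 1.21% ± 0.723, and Vmn2r27 the next, at 2.50% ± 1.42, 1.32% ± 0.541 and 1.97% ± 0.820; both genes hold one of the 3 high bins described above. Vmn2r29 followed with 1.52% ± 0.265, 1.60% ± 0.253 and 1.58% ± 0.237, and here all 7 bins lay at or above 0.792%. Vmn2r30 and Vmn2r77 completed the 5 highest. The lowest Vmn2r was Vmn2r36, with 0% in all 4 bins both after sleep deprivation and in the ACE-seq control, and with 0% in 3 bins and 2.22% in the other in the DDD-seq control. Vmn2r21 had 0% in each of the 4 bins with a value in the sleep-deprived library, and Vmn2r113, Vmn2r68 and Vmn2r106 were the next lowest. For Vmn1r, the lowest were Vmn1r103, Vmn1r58, Vmn1r224, Vmn1r81 and Vmn1r69, and the highest Vmn1r143, Vmn1r216, Vmn1r4, Vmn1r13 and Vmn1r89. Vmn1r143 ranks high by a value of 9.52% in the ACE-seq control and 3.03% in the DDD-seq control in a bin at 0% in the sleep-deprived library; its other bin is at 0% in all 3. Vmn1r103, with the similar window printed above, had 0.909 and 0% in its 2 bins after sleep deprivation, 0 and 0.926% in the ACE-seq control and 0% in both in the DDD-seq control.

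Counted by gene, 216 Vmn1r and 122 Vmn2r genes had a level in every library. Below the autosomal bin median in all 3 libraries were 102 of the 216 Vmn1r and 80 of the 122 Vmn2r genes. Of 20497 autosomal protein-coding genes read the same way, 39.3% were, so Vmn1r genes stood nearer to that share than Vmn2r genes. Above the autosomal bin median in all 3 were 5 of the 216 Vmn1r and 2 of the 122 Vmn2r genes, against 28.3% of the 20497 genes. Gene medians were 0.942, 0.889 and 0.975% for Vmn1r, and 1.02, 1.04 and 0.976% for Vmn2r, in the sleep-deprived library, the ACE-seq control and the DDD-seq control. A level of 0 in all 3 libraries was given for 14 Vmn1r genes and 1 Vmn2r gene, and the share over all genes is not given here. These counts are not comparable between the types, since 202 of 229 Vmn1r genes but 2 of 122 Vmn2r genes lie in a single bin.

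Bins listed at 0 were the second feature of these regions. In the sleep-deprived library 61 of 688 receptor bins (8.87%) were listed at 0, against 0.41% of all autosomal bins. In the ACE-seq control they were 74 of 684 (10.8%), against 0.722%, and in the DDD-seq control 64 of 682 (9.38%), against 0.658%. Olfactory receptor bins, with similar mean levels, had 0.639, 2.08 and 2.08% at 0. In all 3 libraries at once 25 of 677 receptor bins (3.69%) were at 0, against 0.158% of all autosomal bins, and 0 of 1250 olfactory receptor bins. A further 21 were at 0 in 2 libraries and 59 in 1. A listed 0 says only that no cytosine of the bin was counted as unconverted, and with no read counts a bin with few reads and a bin without 5hmC cannot be told apart.

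The bins at 0 were concentrated on chromosome 7. It held 51 of the 61 in the sleep-deprived library (83.6%), 53 of the 74 in the ACE-seq control (71.6%) and 51 of the 64 in the DDD-seq control (79.7%), with 45.4% of the receptor bins. Vmn1r bins on chromosome 7 were at 0 in 23.5, 21.1 and 24.8% of cases, and those on other chromosomes in 0.826, 4.13 and 0%. Vmn2r bins on chromosome 7 were at 0 in 11.2, 14.5 and 10.7%, and those on other chromosomes in 3.50, 6.25 and 5.10%. Over all bins of chromosome 7 the share was 1.97, 2.65 and 2.45%.

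All 25 bins at 0 in every library fell in 3 clusters, which were singled out after their values were seen. The Vmn1r91 to Vmn1r183 cluster (chr7:20101158-24055691, 86 genes, 89 bins) held 15 of them. The Vmn2r29 to Vmn1r89 cluster (chr7:7212996-13220289, 52 genes, 119 bins) held 7, in or near Vmn2r35, Vmn2r36, Vmn2r40, Vmn2r43 and Vmn2r47. The Vmn2r19 to Vmn2r27 cluster (chr6:123308333-124231784, 43 bins) held 3, in Vmn2r20 and Vmn2r21. These 3 clusters together hold 36.2% of the receptor bins. They had 58 of the 61 bins at 0 in the sleep-deprived library, 54 of the 74 in the ACE-seq control and 50 of the 64 in the DDD-seq control. They also held every receptor bin with no value, 6 of 6, 10 of 10 and 12 of 12. In the other clusters 0.677, 4.51 and 3.16% of bins were at 0.

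High values fell in the same clusters. Of the 12 receptor bins with the highest single value in any library, 11 lay in these 3 clusters. The bin of Vmn1r241 had 0, 16.7 and 0% in the sleep-deprived library, the ACE-seq control and the DDD-seq control, and that of Vmn1r250 had 12.5, 0 and 0%. The SD over bins was 1.22 points in the sleep-deprived library, 1.52 in the ACE-seq control and 0.896 in the DDD-seq control inside the 3 clusters, and 0.50, 0.572 and 0.515 points over the other receptor bins. The means differed less, at 0.972, 1.02 and 0.994% inside the 3 clusters and 1.06, 1.02 and 1.02% outside. The low level was thus found in receptor bins inside and outside the 3 clusters, and the wide spread inside them.

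Copies with identical start windows stood where the zeros were. Of the 322 genes with a window, 62 share it base for base with another receptor gene, in 25 groups of up to 6 genes, and Vmn1r240 shares its window with the predicted gene Gm16451. Of these 63 genes, 55 are Vmn1r and 8 Vmn2r, and 61 lie on chromosome 7. The largest group is Vmn1r111, Vmn1r118, Vmn1r131, Vmn1r138, Vmn1r166 and Vmn1r257. A further 123 genes share a run of at least 50 bases of the window with another gene, and 136 share none. The bins that hold the starts of the first kind were at 0 in 45.6% of cases (26 of 57) in the sleep-deprived library, 44.4% (24 of 54) in the ACE-seq control and 55.6% (30 of 54) in the DDD-seq control. For genes with a partly shared window it was 7.32, 5.74 and 5.74%, and for genes with none shared 2.94, 4.41 and 2.21%. Within chromosome 7 alone the shares were 47.3, 44.2 and 57.7% for identical windows, 13.6, 8.47 and 10.2% for partly shared ones and 4.65, 4.65 and 4.65% for unshared ones. Of the bins at 0 in all 3 libraries, 14 hold a start of the first kind, 2 one of the second and 1 one of the third. A window of 300 bases says little of the other bases of a 10 kb bin, and the part that near-identical copies have in the zeros was not tested.

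**Figure D4:**
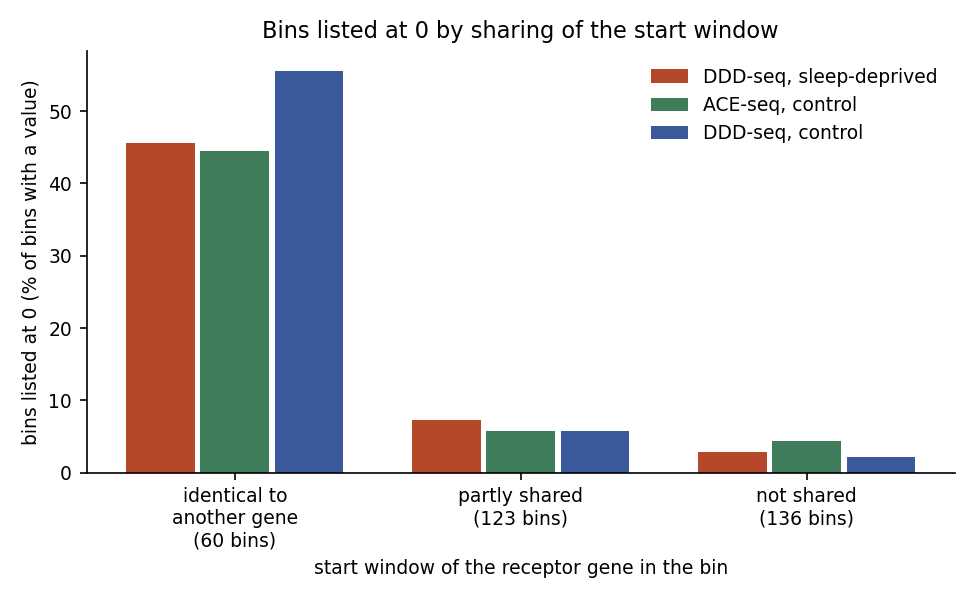
The share of bins listed at 0 (y axis, percent of bins with a value) is drawn for bins that hold the start of a receptor gene, grouped by whether the 300-base start window is identical to that of another gene, shares a run of at least 50 bases or shares none, in the 3 libraries. Shares of 45.6, 44.4 and 55.6% for identical windows stand above 7.32, 5.74 and 5.74% for partly shared ones and 2.94, 4.41 and 2.21% for unshared ones.

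Chronic sleep deprivation was compared with control by DDD-seq over 679 receptor bins with both values. The mean was 1.04% after sleep deprivation and 1.02% in the DDD-seq control, a mean paired difference of 0.0218 points ± 0.0377 (SE over bins), and the median difference was 0. The level was higher in the sleep-deprived library in 327 bins, lower in 320 and equal in 32. It was higher by more than 0.5 points in 148 bins (21.8%), against 16.7% of all autosomal bins, and lower by more than 0.5 points in 142 bins (20.9%), against 16.2%. Both shares were above the background by a similar amount, and olfactory receptor bins had 19.8 and 20.4%. For Vmn1r bins the mean difference was -0.0104 points ± 0.0721 and for Vmn2r bins 0.0403 points ± 0.0425, each smaller than its SE over bins.

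Of the 17 clusters, 8 had a higher and 9 a lower mean after sleep deprivation than in the DDD-seq control. The Vmn1r188 to Vmn1r223 cluster (chr13:22087878-23250323, 38 bins) had a mean paired difference of -0.208 points (SE 0.0782), with 1.04% after sleep deprivation and 1.25% in the DDD-seq control. The chromosome 17 cluster of 103 bins was higher by 0.140 points (SE 0.0695), with 0.977 and 0.838%. The ACE-seq control had 1.12% and 0.967% in these clusters, in both nearer to the sleep-deprived library than to the DDD-seq control. These 2 of the 17 clusters had the largest differences for their SE over bins. They were picked out after their values were seen. That SE does not describe spread between animals, and a difference between single libraries cannot be told apart from a difference between preparations.

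The ACE-seq control was compared with the DDD-seq control over 679 bins, to set both chemistries side by side on control tissue. Means were 1.03% in ACE-seq and 1.02% in DDD-seq, with a mean paired difference of 0.00932 points ± 0.0434. Over all autosomal bins the mean difference of ACE-seq minus DDD-seq was -0.0440 points. ACE-seq was higher by more than 0.5 points in 142 receptor bins (20.9%), against 16.6% of all autosomal bins, and lower by more than 0.5 points in 155 (22.8%), against 20.2%. The Vmn2r19 to Vmn2r27 cluster of chromosome 6 had 0.778% in ACE-seq and 1.26% in DDD-seq, a paired difference of -0.467 points ± 0.167 over 40 bins, and the sleep-deprived library had 1.05%. The 103-bin cluster of chromosome 17 had a difference of 0.130 points ± 0.0616, and the Vmn2r80 to Vmn2r83 cluster of chromosome 10 had a difference of -0.172 points (SE 0.0875). These 3 of the 17 clusters had the largest differences for their SE over bins and were also picked out after their values were seen.

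**Figure D5:**
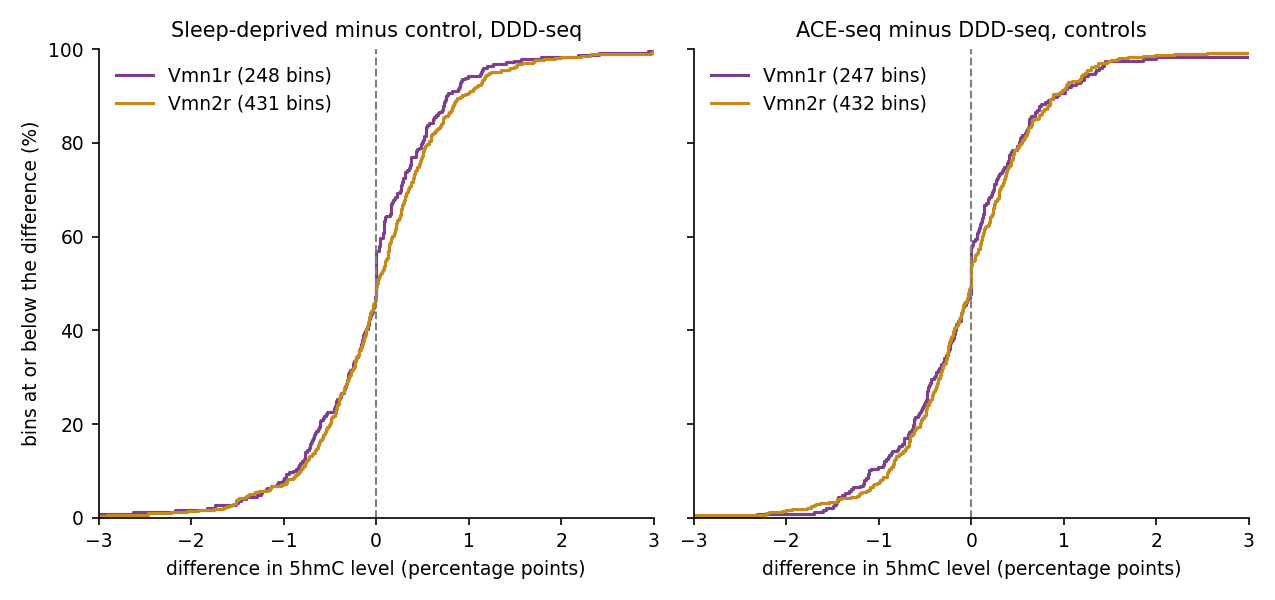
Cumulative share of Vmn1r and Vmn2r bins (y axis, percent) by their paired difference in 5hmC level (x axis, percentage points), for sleep-deprived minus control by DDD-seq on the left and ACE-seq minus DDD-seq controls on the right; 7 of 679 and 10 of 679 bins lie beyond the 3 points shown on either side. The curves of both types cross the middle at a difference of 0, with the vertical stretch there made by bins equal in both libraries.

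Bin by bin, the libraries ranked receptor bins only weakly alike. The Spearman rank correlation over 677 receptor bins was 0.168 between the sleep-deprived library and the DDD-seq control, 0.210 between both controls and 0.143 between the sleep-deprived library and the ACE-seq control. Over 239288 autosomal bins it was 0.522, 0.490 and 0.505, and over 1250 olfactory receptor bins 0.0993, 0.136 and 0.0724. The bins of each coefficient share libraries, depth and base composition, and the coefficients are given as a description. Which receptor bin is higher than another within a library is thus hardly shared between libraries, whereas the low level of the whole set was present in each.

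Genes of ligands, signalling and wiring of the vomeronasal system were read over their own bins, from lists chosen for their role. The 21 major urinary protein genes (Mup), whose products carry and act as male pheromones, had a median of 0.983% in the sleep-deprived library, 0.934% in the ACE-seq control and 0.998% in the DDD-seq control, and 13 were below the autosomal median in all 3. The 15 exocrine gland-secreted peptide genes (Esp) had medians of 0.944, 1.02 and 0.988%, with 8 below in all 3; Esp1, which encodes the ligand of Vmn2r116, had 1.27, 1.44 and 1.82%. None of either list was above the autosomal median in all 3 libraries. Of all autosomal protein-coding genes, 39.3% were below that median in all 3 libraries and 28.3% above it. The H2-M family of 9 class Ib histocompatibility genes, expressed with V2Rs in basal neurons, had medians of 1.13, 1.03 and 1.01%. Of the formyl peptide receptors, a small family partly expressed in the vomeronasal organ, 5 of 8 symbols were analysed, with medians of 0.968, 0.637 and 0.910%.

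The signalling genes had higher medians than the receptors, at 1.24, 1.16 and 1.27% over 11 genes. Still, 9 of the 11 were below the autosomal median in all libraries, against 39.3% of all autosomal protein-coding genes. Trpc2, the cation channel that vomeronasal neurons need for transduction, had 1.17% ± 0.0755 in the sleep-deprived library, 0.859% ± 0.161 in the ACE-seq control and 1.13% ± 0.0148 in the DDD-seq control. Omp, the marker of mature olfactory and vomeronasal neurons, had 1.24, 1.17 and 1.19% in its bin. Gnao1, which encodes Gαo and is also widely used in brain, had 2.40% ± 0.218, 2.26% ± 0.304 and 2.32% ± 0.261. Gnai2, which encodes Gαi2, had 1.02, 1.16 and 1.17%. Among 8 genes of neuron identity and wiring the medians were 1.38, 1.37 and 1.30%, and Kirrel3, an adhesion protein that helps to sort vomeronasal axons and is also made in brain, had 2.73% ± 0.113, 2.73% ± 0.126 and 2.77% ± 0.113 over 57 bins.

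The tissue label was read against marker genes, in which a level is a mark on DNA and not a measure of expression. Of 10 granule cell genes, 6 were above the autosomal median in all 3 libraries, against the 28.3% of all genes given above, and Etv1 had 6.70, 6.42 and 6.52%, Kcnd2 5.26, 5.14 and 5.36% and Gabra6 4.14, 2.87 and 2.99%. Below it in all 3 were 2 granule cell genes, against the 39.3% of all genes given above. They were Neurod1 with 1.25, 0.921 and 1.06% and Zic1 with 0.932, 1.002 and 0.920%. Of 5 Purkinje cell genes, 3 were above it and 2 below it in all 3. Of 4 genes of blood cells and microglia, which other cells of the tissue carry, 2 were above it in all 3 and 0 below. Of 6 genes that mark vomeronasal sensory neurons, 1 was above it (Gnao1) and 4 below.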

How the data were processed

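Genomic DNA of mouse cerebellum was profiled in 3 libraries. The fraction of cytosines read as 5hmC in each 10 kb bin was deposited by the authors, and fractions were multiplied by 100 to give levels in percent. Reads went through FastQC, Trimmomatic and Bismark and the build named is hg19, a human build, both per the submitters' processing notes. The bins cover mouse chromosomes and were treated as GRCm38. A header word of the DDD-seq columns, "all", leaves it possible that runs or animals were pooled. Cytosine context, coverage filters and depth are not given in the sources used here, and unconverted cytosine adds to every level.

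Gene positions and start windows were taken from RefSeq tables of GRCm38.p6. Gene rows starting before 3 Mb of an autosome carry positions on unplaced pieces, and 3 receptor genes were left out for this, with 1 on chromosome X. Receptor genes up to 1000 kb apart formed a cluster, and flanks reached 200 kb. A gene's level was the mean over the bins it overlaps. A difference was called past 0.5 points. With 1 library per group no test was run; means, medians, SD and SE over bins, shares and Spearman coefficients were computed with Python 3.11.15, pandas 2.3.3, numpy 2.4.6 and scipy 1.17.1, and the summaries were tested on simulated data. Named genes were those of known ligand or family, the 5 highest and 5 lowest per type among genes with at least 2 complete bins, and lists of the pathway. Members, genes and lists were chosen with earlier results of these data known. Alternatives left out bins at 0, shared bins, bins covered for under 5 kb, incomplete bins or chromosome 7, or used medians, other thresholds, flanks of 500 kb and a gap of 500 kb.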

Additional observations from a re-analysis of the deposited data

How the results depend on the processing

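No paired analysis was possible because each group has 1 library and the columns carry no replicate shared between groups. Every alternative in which these differences were recomputed kept receptor bins below other protein-coding bins and below their flanks in all 3 libraries. Values in each list below run from the sleep-deprived library over the ACE-seq control to the DDD-seq control. Without bins at 0 the mean level was 1.13, 1.14 and 1.12%, the difference from other protein-coding bins -0.640, -0.582 and -0.653 points, and that from the flanks -0.0992, -0.0454 and -0.109 points. With medians the level was 0.956, 0.926 and 0.953% and the difference from other protein-coding bins -0.526, -0.528 and -0.538 points. With at least 5 kb of a bin covered by receptor genes, the sleep-deprived mean was 1.09%, the share at 0 was 5.76% after sleep deprivation and 6.42% in the DDD-seq control, and Vmn1r minus Vmn2r was 0.0975 points after sleep deprivation and -0.130 points in the ACE-seq control. This setting leaves out a bin that holds only 1 Vmn1r gene of the median length, 924 bp. The number of bins left of each type is not given here, so the Vmn1r side may rest on few bins.

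The share of bins at 0 depended most on the clusters included. It was 2.65, 5.57 and 3.46% without chromosome 7. Of the alternatives chosen after seeing the data, it was 5.55, 7.94 and 5.41% without bins of genes with an identical start window, 0.677, 4.51 and 3.16% without the 3 clusters that hold bins at 0 in every library, and 4.98, 7.97 and 5.34% without the Vmn1r91 to Vmn1r183 cluster alone. In the DDD-seq control Vmn1r minus Vmn2r was 0.178 points without chromosome 7, 0.207 points without those 3 clusters and 0.118 points without that single cluster. Leaving out any other of the 17 clusters moved no result past its error over bins. Past 0.25 points, 231 bins (34.0%) were higher and 216 (31.8%) lower after sleep deprivation, against 30.7 and 29.8% of all autosomal bins. In ACE-seq 214 (31.5%) were higher and 244 (35.9%) lower, against 29.0 and 34.8%. Past 1 point the counts were 53 (7.81%) and 51 (7.51%) after sleep deprivation, against 4.51 and 4.48% of all autosomal bins. In ACE-seq they were 60 (8.84%) and 59 (8.69%), against 4.80 and 6.06%. The bins complete in all libraries and the bins without another gene moved no result past its error over bins. Flanks of 500 kb were used for the difference from the flanks alone, which was then -0.260, -0.209 and -0.263 points. A cluster gap of 500 kb gave 29 clusters instead of 26, and no other result was recomputed with it. Beyond the stated construction of each alternative the cause was not tested. Without read counts the depth behind a bin at 0 is unknown, and with 1 library per group animal, preparation and treatment cannot be told apart.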
